A study of Mus musculus with 12 samples.

Results

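The aminoacyl-tRNA synthetases of the mouse heart were followed through ischemic preconditioning, in wild-type mice and in mice without the adenosine A2B receptor. Members were all probe sets whose only symbol in the authors' table is 1 capital letter followed by "ars", with or without a final 2, or is Eprs. This rule, which uses no measured value, gave 54 probe sets for 29 symbols, out of 20972 symbols on the array. After removal of dim probe sets (a mean log2 signal under the 40th percentile), 47 probe sets and 28 genes were left, and each gene was read from its brightest probe set. Eprs, the fused glutamyl- and prolyl-tRNA synthetase, was not tested, since its single probe set read between 7.59 and 88.8 units. By Entrez identifier 2 of the old symbols belong to other genes than their names say. The probe sets listed as Hars2 are those of Dtd1, a deacylase that removes D-amino acids from mischarged tRNA and is no synthetase, and the one listed as Vars2 is that of Vars, the cytosolic valyl enzyme. The genes tested were therefore 16 cytosolic synthetases (Gars serves both compartments), 11 mitochondrial synthetases and Dtd1.

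Each aminoacyl-tRNA synthetase joins 1 kind of amino acid to its tRNAs, using ATP, and so supplies the charged tRNAs that ribosomes read. Mammalian cells keep separate nuclear-encoded sets for the cytosol and for the mitochondrion, where the products are subunits of the respiratory chain, a large part of the work of heart muscle. Several cytosolic enzymes sit in a multi-synthetase complex on scaffold proteins, and many cytosolic synthetase genes are known targets of the transcription factor ATF4, which is translated when the initiation factor eIF2 is phosphorylated, for example when uncharged tRNAs activate the kinase GCN2.

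RNA came from the part of the left ventricle at risk of ischemia, in male BL6/C57 mice of 12 weeks, and was hybridised to 12 Affymetrix arrays. Each of the 4 groups had 3 arrays: control and IP hearts of wild type, and control and IP hearts of A2BAR-/- mice, where IP was ischemic preconditioning in situ, 4 cycles of 5 min of ischemia and 5 min of reflow, and then 2 h of reperfusion. A2BAR-/- mice lack the A2B receptor, encoded by Adora2b, which couples extracellular adenosine to cAMP. The labels restrict the deletion to no cell type, call the controls sham operated in the treatment text and untreated in the design text, and give the wild-type mice both as vendor animals and as littermates. No label states that each array is another animal, and p-values then reflect only the spread between these arrays, which may be technical.

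Median signals per array lay between 66.5 and 81.1 units. The third wild-type control array had no usable value for Rars and for the probe set 1417024_at of Hars, which fell in a run of 1425 zeros set as missing. Adora2b, the targeted gene, read 5.86, 6.44 and 6.46 log2 units on the wild-type control arrays, 7.80, 7.50 and 7.42 on the wild-type IP arrays, 5.11, 6.09 and 6.30 on the knockout control arrays and 6.09, 6.28 and 5.99 on the knockout IP arrays, and thus separated the genotypes after IP but not in the controls. Whether the deletion removes the sequence that its probes read was not tested. Summed signals of 8 cardiomyocyte markers were between 349000 and 384000 on the control and knockout IP arrays and between 410000 and 418000 on the wild-type IP arrays. Neutrophil markers summed to 826 to 8660 on the wild-type control, 9260 to 26400 on the wild-type IP, 1380 to 2150 on the knockout control and 7900 to 17400 on the knockout IP arrays. The high wild-type control array was the third, with S100a8 at 11.54 log2 units beside 7.97 and 8.45 on the other 2. S100a9 was at 12.24 beside 8.41 and 8.28, whereas Trem1 was lower, at 4.72 beside 5.37 and 5.58. Endothelial markers summed to 8660 to 10900 and 7710 to 10600 on the control arrays of wild type and knockout, and to 5910 to 6570 and 6460 to 7020 on their IP arrays. The 5 endothelial genes did not move alike. In each genotype 3 were lower after IP (Kdr, Tek and Egfl7), while the estimates of the other 2, Pecam1 and Cdh5, were above 0. The neutrophil and endothelial sums moved with IP in both genotypes, and the cardiomyocyte sum in wild type only. The part of these sums in the results below was not tested. In whole tissue, fewer cells of a type and less RNA per cell cannot be told apart.

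In wild-type hearts 4 of the 28 synthetase genes differed between IP and control, Sars upward and the mitochondrial Nars2, Yars2 and Lars2 downward. This is 14.3% of the members, beside 16.6% of all 14044 genes tested (adjusted p below 0.05, limma with Benjamini-Hochberg adjustment over all genes). In the upward direction the background was 6.54% and in the downward direction 10%. The family as a whole was therefore called at a rate close to that of all genes. At an unadjusted p below 0.05 there were 6 members (21.4%), beside 29.9% of all genes. The arrays of the groups did not overlap for 5 of 28 members (17.9%), beside 33.5% of all genes. The median change was -0.09 log2 units over the members and -0.05 over all genes. The 95% confidence interval lay within 0.5 log2 units of 0, a 1.41-fold change, for 18 of the 28.

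Sars encodes the cytosolic seryl-tRNA synthetase. Its signal was 1090, 1320 and 1480 units on the wild-type control arrays and 1800, 1770 and 1770 on the wild-type IP arrays. On the knockout arrays it was 1570, 1250 and 1600 in controls and 1730, 1780 and 1910 after IP. Every IP array of both genotypes lay above every control array. The rise was 1.38-fold in wild type (log2 0.46 ± 0.12 SE, adjusted p = 0.016) and the knockout estimate was 0.30 ± 0.12 (adjusted p = 0.124). The wild-type call was lost without the first wild-type IP array (adjusted p = 0.0535) or the first wild-type control array (adjusted p = 0.0701). Averaged over the genotypes the rise was 0.38 ± 0.08 (adjusted p = 0.00376).

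Nars2 encodes the mitochondrial asparaginyl-tRNA synthetase. Its signal was 758, 683 and 589 units on the wild-type control arrays and 395, 480 and 504 on the wild-type IP arrays. It was 606, 656 and 701 on the knockout control arrays and 477, 561 and 473 on the knockout IP arrays. Again no IP array reached the lowest control array of either genotype. The wild-type fall was 1.46-fold (log2 -0.54 ± 0.13 SE, adjusted p = 0.0135), and the knockout estimate was -0.37 ± 0.13 (adjusted p = 0.0911). Without the first wild-type IP or the first wild-type control array the wild-type adjusted p was 0.0674 or 0.0586. The average over the genotypes fell by 0.46 ± 0.10 (adjusted p = 0.00256).

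Lars2 encodes the mitochondrial leucyl-tRNA synthetase. Its signal was 2430, 2140 and 2360 units on the wild-type control arrays and 2110, 1810 and 1770 on the wild-type IP arrays. It was 2110, 2170 and 2110 on the knockout control arrays and 1800, 1910 and 1760 on the knockout IP arrays. The IP arrays were the lower ones in each genotype, by a small margin in wild type, where the highest IP and the lowest control array read 2110 and 2140. The change was -0.28 ± 0.09 (SE) in wild type (adjusted p = 0.0427), -0.22 ± 0.09 in knockout (adjusted p = 0.127) and -0.25 ± 0.06 on average (adjusted p = 0.00846). The wild-type call was lost without the second or the third wild-type IP array or the first or the third wild-type control array (adjusted p between 0.106 and 0.139), and also without the first or second knockout IP or the first or the third knockout control array (between 0.0501 and 0.0573).

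Yars2 encodes the mitochondrial tyrosyl-tRNA synthetase, variants of which cause a human disease of muscle and red blood cells. Its signal was 852, 747 and 812 units on the wild-type control arrays and 631, 654 and 599 on the wild-type IP arrays. It was 927, 1010 and 849 on the knockout control arrays and 894, 856 and 827 on the knockout IP arrays. The wild-type IP arrays were below all the others, while the 2 knockout groups overlapped. The change was -0.35 ± 0.10 (SE) in wild type (adjusted p = 0.0353) and -0.11 ± 0.10 in knockout (adjusted p = 0.562). The difference between these effects was 0.24 ± 0.15 (adjusted p = 0.731), so a difference between the genotypes was not shown. The wild-type call was lost without any of the 3 wild-type IP arrays or without the first or the third wild-type control array (adjusted p between 0.051 and 0.109). The average of -0.23 ± 0.07 (adjusted p = 0.0343) was lost without 8 of the 12 arrays, each in turn: the second or the third knockout IP, the first or the second knockout control, the first or the third wild-type IP, and the first or the third wild-type control array (adjusted p between 0.0566 and 0.083).

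**Figure D1:**
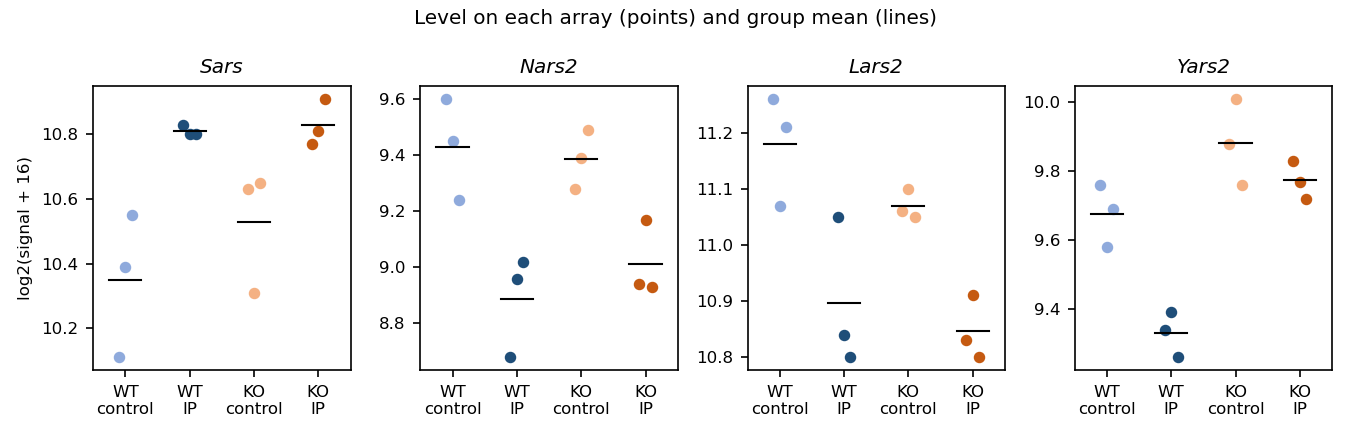
Level of the 4 called genes on each array, as log2(signal + 16), for wild type (WT) and knockout (KO) in control and IP hearts. Points are arrays, 3 in each group, and lines are group means. Sars was higher on all IP arrays, and Nars2 and Lars2 were lower, while for Yars2 only the wild-type IP arrays, 599 to 654 units, stood apart from every control array.

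In knockout hearts none of the 28 members passed, beside 12.1% of all genes. At an unadjusted p below 0.05 there were 5 members (17.9%), beside 26.4% of all genes, and for 6 of 28 (21.4%) the arrays did not overlap, beside 32.2%. The members nearest to the threshold were Iars, the isoleucyl enzyme of the cytosol, at 0.28 ± 0.09 (SE, adjusted p = 0.0664), and Pars2, the mitochondrial prolyl enzyme, at -0.64 ± 0.23 (adjusted p = 0.085). Iars read 2290, 2430 and 2080 units on the knockout control arrays and 3100, 2600 and 2590 on the knockout IP arrays. The Iars arrays did not overlap in knockout hearts. Its wild-type estimate was -0.06 ± 0.09, and the difference of 0.34 ± 0.13 between the genotypes had an adjusted p of 0.571. No member passed for a difference between the genotypes in the IP effect, and neither did any of the 14044 genes (0%). At an unadjusted p below 0.05 that test gave 1 member, Iars, and 1105 genes (7.87%). The interval of the difference lay within 0.5 log2 units of 0 for 13 of the 28 members, so for the rest larger differences between the genotypes remain possible.

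Averaged over both genotypes, the same 4 genes as in wild type passed, 14.3% of the members beside 26.2% of all genes, with 8.52% of all genes higher and 17.7% lower. Sars2 and Pars2, the mitochondrial seryl and prolyl enzymes, came next with -0.41 ± 0.14 (SE, adjusted p = 0.0506) and -0.43 ± 0.16 (adjusted p = 0.0668).

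**Figure D2:**
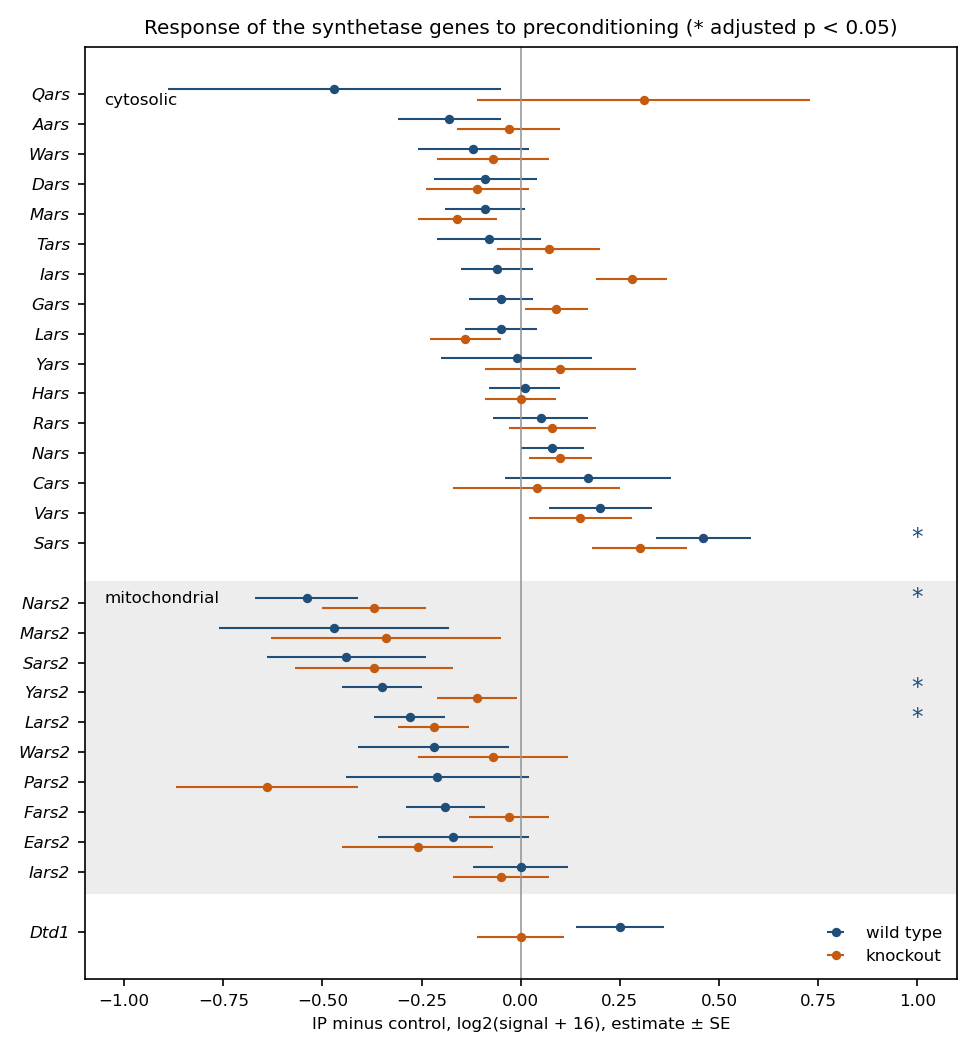
IP minus control on the log2(signal + 16) scale for 27 of the 28 genes tested, with the standard error as bars, in wild type (blue) and knockout (orange). Genes are grouped as cytosolic, mitochondrial (grey band) and Dtd1, under current names, and stars mark adjusted p below 0.05. All 10 mitochondrial estimates plotted lie at or left of 0 in both genotypes, and the cytosolic ones lie on both sides.

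The 2 compartments were then described separately. By their brightest probe sets, all 11 mitochondrial synthetases had an estimate below 0 in wild type, where 56.6% of all genes did. All 11 did so in knockout, where 63.1% of all genes did. The smallest of these, that of Iars2 in wild type, was -0.00 at 2 decimals. The median was -0.22 in wild type and -0.22 in knockout, beside -0.05 and -0.08 over all genes. Past the threshold were 3 in wild type (27.3%), all lower, where 16.6% of all genes passed and 10% were lower. In knockout none passed, where 12.1% of all genes did. All 11 estimates come from the same arrays and are not independent of each other. Mars2, the methionyl enzyme, was at -0.47 ± 0.29 (SE) in wild type and -0.34 ± 0.29 in knockout without passing. Sars2 was at -0.44 ± 0.20 and -0.37 ± 0.20, again without passing. Wars2, Pars2, Fars2, Ears2 and Iars2 (for tryptophan, proline, phenylalanine, glutamate and isoleucine) were between -0.22 and -0.00 in wild type. Of the 16 cytosolic enzymes 10 were below 0 in wild type (median -0.05) and 5 in knockout (median 0.07). The number of mitochondrial members below 0 was 10 or 11 in wild type over the 25 other settings tried. In knockout it was 8 to 11, with 8 for the mean of all probe sets. There the dimmer probe sets of Lars2, Fars2, Yars2 and Wars2 lay above 0, at 0.44, 0.15, 0.14 and 0.07. Those of Ears2, Iars2 and Nars2 lay below it, at -0.19, -0.18 and -0.36. The difference between the compartments was not tested.

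Another 6 mitochondrial synthetases are listed on the array under older symbols that the rule does not take. Rars2 was already on the planned list of synthetase genes outside the rule. The others were looked up after the members' values had been seen. Averaged over the genotypes, 3 of the 6 fell, where 26.2% of all genes passed and 17.7% were lower. The arginyl enzyme Rars2 was at -0.37 ± 0.08 (SE, adjusted p = 0.00289), the threonyl enzyme Tars2 at -0.36 ± 0.10 (adjusted p = 0.0127) and the histidyl enzyme Hars2 at -0.35 ± 0.09 (adjusted p = 0.0138). Rars2 read 10.32, 10.29 and 10.24 log2 units on the wild-type control arrays and 9.81, 10.03 and 9.70 on the wild-type IP arrays. It read 10.30, 10.18 and 10.33 on the knockout control arrays and 10.05, 10.06 and 9.80 on the knockout IP arrays. Every IP array was below every control array. Vars2 (-0.41 ± 0.15, adjusted p = 0.0583), Aars2 (-0.16 ± 0.10) and Cars2 (-0.07 ± 0.07) did not pass on average, although Aars2 fell in knockout (-0.48 ± 0.14, adjusted p = 0.0343). With the members this makes 17 mitochondrial synthetases, of which 6 were lower on average and none higher, where 17.7% of all genes were lower and 8.52% higher. By the brightest probe set of each gene, 17 of the 17 average estimates were below 0, as were 60.4% of all genes. In knockout 17 of the 17 were below 0 by these probe sets, beside 63.1% of all genes. In wild type 16 of the 17 were, beside 56.6% of all genes, and the exception was Aars2 at 0.16.

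**Figure D3:**
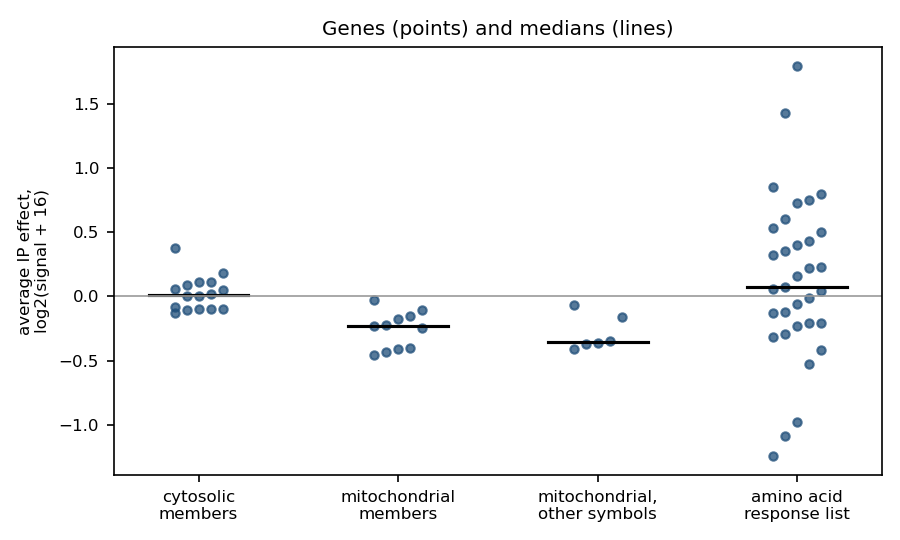
Average IP effect over both genotypes on the log2(signal + 16) scale, with 1 point for each gene and a line at the median of each group. The mitochondrial members (n = 11, median -0.23) and the 6 listed under other symbols (median -0.35) lie below 0, the 16 cytosolic members lie around 0 (median 0.01), and the 33 genes of the amino acid response list spread from -1.24 to 1.79.

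Partners of the mitochondrial enzymes were read from the lists of tRNA partners and elongation factors. Qrsl1, the catalytic subunit of the amidotransferase that turns glutamyl-tRNA into glutaminyl-tRNA in mitochondria, read 12.01, 12.01 and 11.95 log2 units on the wild-type control arrays and 11.19, 11.52 and 10.99 on the wild-type IP arrays. Its arrays were well apart. It fell by 0.75 ± 0.12 (SE) in wild type (adjusted p = 0.000678) and was at -0.35 ± 0.12 in knockout (adjusted p = 0.0726). Gatb and Gatc, the other subunits of that enzyme, were at 0.11 ± 0.10 and -0.11 ± 0.12 in wild type and did not pass. Mtfmt, which formylates the mitochondrial initiator tRNA, averaged -0.34 ± 0.12 (adjusted p = 0.0505). Of the mitochondrial elongation factors, Tsfm fell in wild type (-0.55 ± 0.15, adjusted p = 0.0224) and Tufm on average (-0.37 ± 0.11, adjusted p = 0.0268), whereas Gfm1 and Gfm2 did not pass. Of 7 partners 1 was called in wild type, and of 10 elongation factors 1, both lower, where 16.6% of all genes passed and 10% were lower. In knockout hearts none of the 7 partners and 1 of the 10 factors, the cytosolic Eef2 (-0.25 ± 0.07, adjusted p = 0.0291), passed, where 12.1% of all genes did. On average 1 of the 10 factors was higher and 2 were lower, and 1 of the 7 partners was lower. Of all genes 26.2% passed in the average, 8.52% higher and 17.7% lower.

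The promoters of the called genes are shown because 3 of them fell together in wild type and 1 rose. Sequences are from RefSeq (build GRCm38.p6), which held promoters for 20 of the 29 member genes. Each is the 150 bases up to the transcription start on the strand of the gene, for Sars chr3:108445260-108445409 (minus strand), Nars2 chr7:96951377-96951526 (plus strand), Lars2 chr9:123366777-123366926 (plus strand) and Yars2 chr16:16302815-16302964 (plus strand). Capitals mark GGGCGG, the GC box, on either strand.
Sars: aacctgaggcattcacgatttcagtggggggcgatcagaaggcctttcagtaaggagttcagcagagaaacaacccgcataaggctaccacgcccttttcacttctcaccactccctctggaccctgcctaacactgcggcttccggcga
Nars2: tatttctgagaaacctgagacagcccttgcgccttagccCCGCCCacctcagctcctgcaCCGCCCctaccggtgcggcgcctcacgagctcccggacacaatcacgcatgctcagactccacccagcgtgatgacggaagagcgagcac
Lars2: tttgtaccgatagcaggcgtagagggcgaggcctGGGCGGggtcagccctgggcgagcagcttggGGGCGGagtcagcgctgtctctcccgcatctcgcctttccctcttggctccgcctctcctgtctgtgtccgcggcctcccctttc
Yars2: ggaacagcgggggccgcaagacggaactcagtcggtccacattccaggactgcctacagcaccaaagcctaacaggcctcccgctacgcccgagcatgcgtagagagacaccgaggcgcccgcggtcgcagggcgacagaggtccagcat
Nars2 and Lars2 each hold 2 GC boxes in this stretch, and Sars and Yars2 hold none there. From 250 bases before to 50 after the start, 16 of the 20 member promoters (80%) and 35.7% of all 32851 promoters hold it. The motif thus did not sort the 3 genes that fell from the gene that rose.

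The cytosolic synthetases, Sars apart, did not pass in any IP comparison. Of the 6 tested members of the multi-synthetase complex (Dars, Iars, Lars, Mars, Qars and Rars) none was called in any of the comparisons. Their median change was -0.07 in wild type and -0.02 in knockout. Kars, the lysyl enzyme of the complex, had no probe set among the members and was not read. The complex scaffolds Aimp1, Aimp2 and Eef1e1 were at -0.22 ± 0.11 (SE), -0.20 ± 0.08 and -0.10 ± 0.12 in wild type and did not pass. Dars, the aspartyl enzyme, read 3050, 2780 and 3030 units on the wild-type control arrays and 2180, 2820 and 3470 on the wild-type IP arrays. Its knockout arrays read 3240, 3020 and 3020 in controls and 2730, 2790 and 3070 after IP. The groups of Dars overlapped in both genotypes.

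Nars, the cytosolic counterpart of Nars2, read 3330, 3250 and 3600 units on the wild-type control arrays and 3540, 3480 and 3740 on the wild-type IP arrays. It read 3400, 3330 and 3580 on the knockout control arrays and 3760, 3480 and 3830 on the knockout IP arrays. These overlapping groups gave estimates of 0.08 ± 0.08 (SE) in wild type and 0.10 ± 0.08 in knockout. Iars read 2740, 2640 and 2510 units on the wild-type control arrays and 2540, 2370 and 2660 on the wild-type IP arrays, which overlap. Gars, the glycyl enzyme of both compartments, was at -0.05 ± 0.08 and 0.09 ± 0.08. Among the rest, Aars, Cars, Hars, Lars, Mars, Rars, Tars, Vars, Wars and Yars (for alanine, cysteine, histidine, leucine, methionine, arginine, threonine, valine, tryptophan and tyrosine) lay between -0.18 and 0.20 in wild type and between -0.16 and 0.15 in knockout. Dtd1, the deacylase, was at 0.25 ± 0.11 (adjusted p = 0.16) and 0.00 ± 0.11. Farsa and Farsb, the subunits of the cytosolic phenylalanyl enzyme, lie outside the rule and were at 0.23 ± 0.13 and -0.22 ± 0.10 in wild type without passing. Pstk, a kinase that works on seryl-tRNA charged for selenocysteine, fell in knockout (-0.44 ± 0.12, adjusted p = 0.0243). It was the 1 called of 8 such genes outside the rule there, beside 12.1% of all genes. Its wild-type arrays were also lower after IP, at 10.26, 10.19 and 10.22 log2 units beside 10.75, 10.61 and 10.28 in controls. For 13 of the 16 cytosolic enzymes the interval lay within 0.5 log2 units of 0 in each genotype.

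The response element that C/EBP and ATF factors such as ATF4 bind has the core TGATGNAA, which was searched on both strands of the same promoters. It occurred in 5 of 20 member promoters (25%) and in 3.97% of all promoters. The holders Aars, Gars, Iars, Tars and Yars are all cytosolic or shared enzymes, and each is printed here over 80 bases with the motif in capitals, since these are the members whose promoter carries the letters of the amino acid response. The stretches are chr8:111033694-111033773 (plus strand), chr6:55037921-55038000 (plus strand), chr13:49682065-49682144 (plus strand), chr15:11399659-11399738 (minus strand) and chr4:129189834-129189913 (plus strand).
Aars: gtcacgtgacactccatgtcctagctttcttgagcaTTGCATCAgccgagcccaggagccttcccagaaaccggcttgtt
Gars: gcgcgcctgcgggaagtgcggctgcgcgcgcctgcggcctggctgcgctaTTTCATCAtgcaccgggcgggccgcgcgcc
Iars: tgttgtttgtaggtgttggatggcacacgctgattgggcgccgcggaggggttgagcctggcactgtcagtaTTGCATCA
Tars: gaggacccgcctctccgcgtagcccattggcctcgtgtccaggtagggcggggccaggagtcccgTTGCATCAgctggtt
Yars: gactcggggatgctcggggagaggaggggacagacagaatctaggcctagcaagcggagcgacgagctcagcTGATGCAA
In Iars and Yars the motif lies just after the start, and the stretch ends with it. Aars holds a second copy after the start, which is not shown. Neither motif overlapped the other in these promoters. None of the 5 holders passed after IP. Their average IP effects were -0.11 ± 0.09 (SE) for Aars, 0.02 ± 0.06 for Gars, 0.11 ± 0.07 for Iars, -0.00 ± 0.09 for Tars and 0.05 ± 0.13 for Yars. A match of letters is no evidence that a factor binds there.

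Other genes of the amino acid response did change after IP. Of 33 tested, 7 were higher and 2 lower in wild type (16.6% of all genes passed there), and 6 higher and 2 lower in knockout (12.1% of all genes). On average 9 were higher and 4 lower, where 26.2% of all genes passed, 8.52% higher and 17.7% lower. Atf4 itself read 11.26, 11.04 and 11.48 log2 units on the wild-type control arrays and 12.13, 11.88 and 12.01 on the wild-type IP arrays, with no overlap. It rose by 0.75 ± 0.12 (SE) in wild type (adjusted p = 0.00106) and by 0.71 ± 0.12 in knockout (adjusted p = 0.00158). Ppp1r15a, which brings a phosphatase to eIF2, rose by 1.94 ± 0.13 (adjusted p = 3.82e-07) and 1.65 ± 0.13 (adjusted p = 1.62e-06). Cebpb, a partner of ATF4 at this element, rose by 1.67 ± 0.32 and 1.20 ± 0.32 (adjusted p = 0.00278 and 0.0237). On the third wild-type control array Cebpb read 11.78 log2 units, beside 10.30 and 9.99 on the first and second. The amino acid transporter genes Slc38a2 (0.72 ± 0.10 and 0.89 ± 0.10) and Slc3a2 (0.59 ± 0.11 and 0.42 ± 0.11) rose in both genotypes. In each genotype 14 of the 33 estimates were below 0. Cth, which makes cysteine, fell, at -1.08 ± 0.31 in wild type (adjusted p = 0.0275) and -1.40 ± 0.31 in knockout (adjusted p = 0.00825). Atf5 read 9.84, 10.04 and 10.31 log2 units on the wild-type control arrays and 9.47, 9.12 and 9.50 on the wild-type IP arrays. Stc2 read 7.96, 8.04 and 8.85 on the knockout control arrays and 7.08, 6.57 and 6.92 on the knockout IP arrays. Asns (asparagine synthetase) was at 0.19 ± 0.23 and 0.45 ± 0.23, Trib3 at -0.03 ± 0.24 and -0.55 ± 0.24 and Ddit3 at 0.04 ± 0.18 and -0.29 ± 0.16, and none of these 3 passed. They were chosen for mention after their values were seen. Among 12 genes of eIF2 and its kinases none passed in wild type, beside 16.6% of all genes. In knockout 1 of the 12 passed, beside 12.1% of all genes. This was Eif2ak4 (GCN2), higher by 0.70 ± 0.20 (adjusted p = 0.031).

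No member differed between the genotypes in control hearts, where 0.0356% of all genes passed, or after IP, where 0.114% did. At an unadjusted p below 0.05 there were 2 members in control hearts, beside 6.59% of all genes, and 3 after IP, beside 12.7%. The interval lay within 0.5 log2 units of 0 for 22 of 28 members in control hearts and for 20 of 28 after IP. After IP the 3 were Yars2 (0.44 ± 0.10 SE, adjusted p = 0.112), Fars2 (0.36 ± 0.10, adjusted p = 0.131) and Qars (1.05 ± 0.42, adjusted p = 0.311), each higher in knockout. All these contrasts share arrays with the IP comparisons. The ratio of the 3' to the 5' signal of beta-actin, a measure of RNA integrity, was 2.33 to 2.62 on the wild-type IP arrays and 1.79 to 1.93 on the knockout IP arrays, with no overlap. On the control arrays it was 2.06 to 2.48 in wild type and 1.85 to 2.64 in knockout.

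Probe sets of Qars, the glutaminyl-tRNA synthetase of the complex, gave different pictures. The brightest probe set, 1456213_x_at, read 1890, 3070 and 942 units on the wild-type control arrays and 1190, 1100 and 1550 on the wild-type IP arrays. It read 3450, 2980 and 935 on the knockout control arrays and 2200, 2760 and 3040 on the knockout IP arrays. High and low arrays occurred within both control groups. The probe set 1423712_a_at of the same gene stayed between 1420 and 1590 units on all 12 arrays. With the beta-actin ratio as a covariate, an alternative added after seeing the data, the difference of 1.05 after IP became -0.16 (adjusted p = 0.971). In the authors' deposited table, from another summary of the signals, the same probe set was at -0.09 for this contrast and was not called. The difference of 1.05 was thus absent there.

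**Figure D4:**
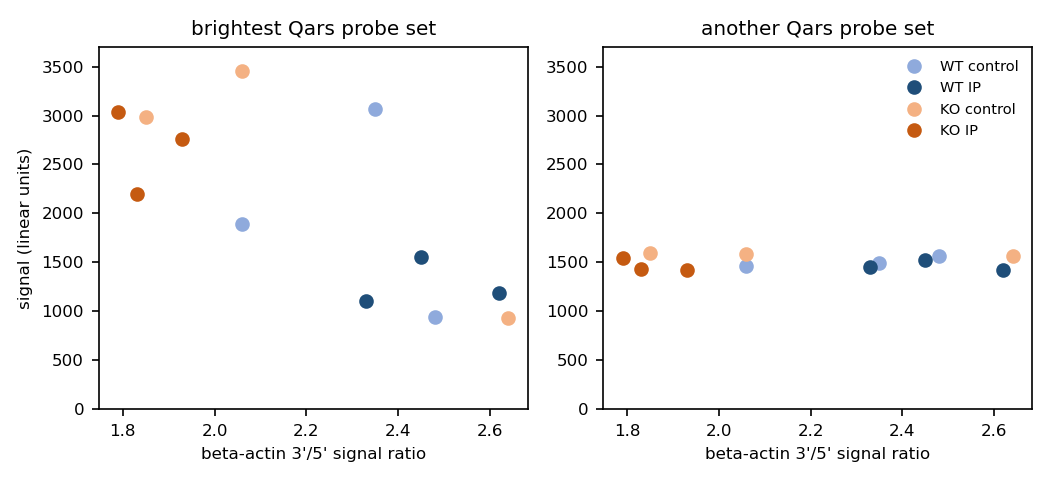
Signal of the brightest Qars probe set (left) and of the probe set 1423712_a_at of Qars (right) against the 3'/5' signal ratio of beta-actin, with 1 point for each of the 12 arrays, coloured by group (WT wild type, KO knockout). The brightest ranged from 935 to 3450 units and the other from 1420 to 1590.

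For 14 of the genes 2 or more probe sets were bright enough to compare. The second Sars probe set, 1452000_s_at, was at -0.03 in wild type and 0.25 in knockout, where the brightest was at 0.46 and 0.30. The second Yars2 probe set was at -0.04 in wild type against -0.35, and the dim second set of Nars2 was at 0.07 against -0.54. The second set of Lars2, which ranged from 71.5 to 361 units, was at -0.24 against -0.28 in wild type. In knockout it was at 0.44 against -0.22 and on average at 0.10 against -0.25, so the direction of Lars2 outside wild type differed between its probe sets. The second set of Iars was at -0.11 in knockout against 0.28, and at 0.01 for the difference between the genotypes in the IP effect against 0.34. The Fars2 sets were at -0.03 and 0.15 in knockout. With every probe set tested on its own, 1 of 47 was higher and 2 were lower in wild type, beside 12.1% of all 27022 probe sets called.

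**Figure D5:**
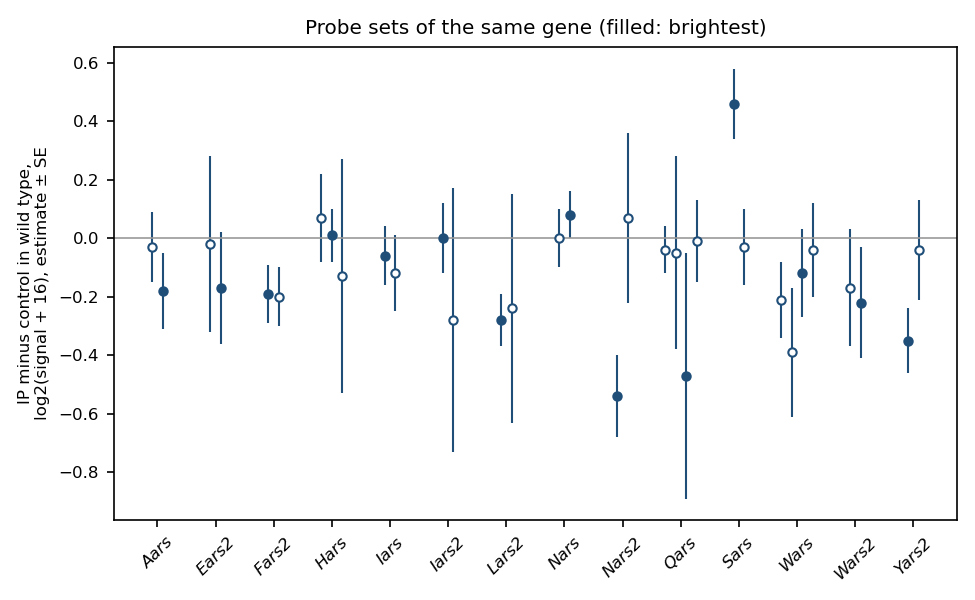
IP minus control in wild type, log2(signal + 16) with standard error, for each probe set of the 14 genes with several above the filter. Filled points are the brightest of their gene. The sets of Sars, Nars2 and Yars2 part from each other, while those of Lars2 and Fars2 lie close together in wild type (in knockout the Lars2 sets were at -0.22 and 0.44).

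The authors' deposited table carries a decision for each probe set and contrast, from a summary of the signals that is not stated. In it, 1 of the 54 member probe sets was higher and 4 were lower after IP in wild type, beside 12% of all probe sets. In knockout 1 was higher and 2 were lower, beside 10.3%. In the authors' deposited table the probe set 1426257_a_at of Sars was higher, and those of Nars2 (1433839_at) and Pars2 were lower, in both genotypes. The authors' deposited table called no Lars2 probe set in either genotype, and its log2 difference for 1435682_at was -0.10 in wild type and -0.14 in knockout. Its values for the only Sars2 probe set, 1448522_at, were 0.01 in wild type and -0.02 in knockout, without a call. The fall of Sars2 estimated above was thus absent there. The authors' deposited table also called both Yars2 probe sets lower after IP in wild type and higher in knockout than in wild type after IP. In all, 4 member probe sets were higher there, beside 3.87% of all. In control hearts it called 1 member, Pars2, higher in knockout, beside 2.15% of all. For the difference between the genotypes in the IP effect, the authors' deposited table called 1 member, the Yars2 probe set 1439442_x_at, beside 0.842% of all. The brightest Iars probe set, 1426705_s_at, was at 0.07 there for this difference and at -0.01 after IP in knockout, neither called.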

How the data were processed

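The deposited values are linear signal intensities, 1 for each probe set and array, from MAS5 according to the submitters' processing notes, with a scaling target not given in the sources used. A table deposited by the authors gives mean log2 expression, log2 differences, an F score, decision scores, p-values and adjusted p-values, per the file headers, and its decisions and log2 differences are used only where named. Signals were transformed to log2(signal + 16), so fold changes of dim probe sets are understated. Zeros in runs of 100 or more were treated as missing, and the 64 Affymetrix controls among 45101 probe sets were not tested. The brightest probe set stood for its gene, symbols were updated by Entrez identifier in a RefSeq table, and 14044 genes above the 40th percentile were tested. Group means over the 12 arrays were fitted in limma 3.58.1 (R 4.3.3), with 8 residual degrees of freedom and a trend of the variance. Tests were two-sided, and Benjamini-Hochberg adjustment was over all genes. The fit was tested on simulated data.

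Members, lists and comparisons were chosen with earlier results of these data known. Values on every array were to be given for members past the threshold and for the 3 brightest others, and other genes were named from the lists, up to 6 past the threshold by size of change or else the 2 with the smallest p. Not all of those are named here, and some were named outside this rule. 1 member takes part in the counts and is not reported by itself here. The lists covered the complex, tRNA partners, elongation factors, the amino acid response, eIF2 and cell types. Mitochondrial members were to be those with a final 2, and 2 were moved by Entrez identifier. Intensities of 12 arrays limit the precision. Alternatives were other offsets, filters, normalization, moderation, weights, probe set summaries, each array left out and a replicate block. Same-numbered arrays correlated between -0.0558 and 0.0761 in their deviations from the group means and were not treated as pairs.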

Additional observations from a re-analysis of the deposited data

How the results depend on the processing

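Averaged over the genotypes, the rise of Sars passed in all 24 alternatives (adjusted p between 0.000836 and 0.0482), and the falls of Nars2 and Lars2 in 23 of 24, the exception being the mean over a gene's probe sets (-0.30, adjusted p = 0.0694, and -0.08, adjusted p = 0.759). In wild type, where 1 member was higher and 3 were lower, leaving out each array in turn gave 0 to 2 higher and 0 to 3 lower. The mean of all probe sets gave 0 and 0, the beta-actin ratio as a covariate gave 1 lower, and a fit of only the groups compared gave 1 lower. In knockout, where none was higher, array weights gave 1 (Iars, adjusted p = 0.0484) and the beta-actin covariate gave 1 (Sars, 0.45, adjusted p = 0.0311). After IP the fit of only the groups compared gave 1 member higher in knockout than in wild type (Qars, adjusted p = 0.0197), and the beta-actin covariate turned Qars from 1.05 to -0.16. On average, where 3 were lower, leaving out each array gave 2 to 5 and the mean of all probe sets 0. The causes were not tested. With a replicate block, whose numbers pair nothing in the labels, Lars2 in wild type had an adjusted p of 0.058 and Pars2 on average 0.0447, and the other calls named were the same.

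Over all genes, calls in wild type went from 2328 to 1420 without the first IP array. In knockout they went from 1705 to 948 without the third IP array, to 1097 without the third control array and to 1090 with the beta-actin covariate. The genotypes after IP differed in 16 genes, in 3 to 74 under the alternatives, and the controls in 5 genes, in up to 9. The covariate gave 2 genes for the difference in IP effect, where the main count was 0. Dim probe sets limit what can be seen of Eprs, and 3 arrays per group limit the rest.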
